A study of Rattus norvegicus with 6 samples.

Results

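The 8 microRNAs (miRNAs) described here are miR-221, miR-222, miR-183, miR-182, miR-96, miR-31, miR-205 and miR-210 of the rat, miRNAs that are often altered in tumours or, for miR-210, in tissue short of oxygen. They were chosen by name: the probe whose rat name is one of these, with an optional arm suffix and without the star that marks the minor arm. The rule found 8 probes, 1 for each name, among 679 probes with a rat name and 5560 probes in all.

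Kidney RNA of 6 male rats was hybridised, 1 array per animal. All 6 were Big Blue rats of the Fisher 344 strain, which carry a bacteriophage lambda transgene made to count mutations, so the controls carry it as well. The 3 control animals, numbered 13, 14 and 15, were untreated. The 3 animals numbered 19, 20 and 21 were given aristolochic acid (AA), a carcinogen of birthwort plants that forms DNA adducts in the kidney, as its sodium salt by gavage at 10.0 mg/kg 5 days a week over 12 weeks, from an age of 6 weeks, with sacrifice on the day after the last dose. An untreated group leaves the gavage itself unmatched. The RNA came from pieces of whole kidney, so a difference in the number of cells of a type and a difference in the RNA per cell cannot be told apart.

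A miRNA is cut from a hairpin precursor and loaded into an Argonaute protein, and its bases 2 to 8, the seed, pair with target messages, which are then held back or degraded. miR-221 and miR-222 are made from neighbouring hairpins and are known to hold down the cell cycle inhibitor p27. miR-183, miR-96 and miR-182 come from a single cluster known from sensory cells and raised in many carcinomas. miR-205 is an epithelial miRNA known to act with the miR-200 family on the ZEB repressors, miR-31 is raised in some carcinomas and lost in others, and miR-210 is the best known miRNA induced by hypoxia-inducible factor.

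The mature sequences are printed because the seed sets which of these miRNAs can share targets and because several of them are close relatives. Each is given as RefSeq lists it on GRCr8, 5′ to 3′, with the seed in capitals, and in all 8 the sequence was identical to the one the array's probe was designed to bind.
rno-miR-221: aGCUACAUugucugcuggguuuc
rno-miR-222: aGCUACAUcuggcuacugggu
rno-miR-183: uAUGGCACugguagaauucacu
rno-miR-182: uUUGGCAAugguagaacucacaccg
rno-miR-96: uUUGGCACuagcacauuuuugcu
rno-miR-31: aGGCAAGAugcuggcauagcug
rno-miR-205: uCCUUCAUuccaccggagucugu
rno-miR-210: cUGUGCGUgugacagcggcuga
The 8 sequences were 21 to 25 bases long. miR-221 and miR-222 shared the whole seed and their first 8 bases, and differed by an edit distance of 6. Within the other cluster, miR-96 matched miR-182 at 6 of the 7 seed positions and miR-183 at 6, while miR-183 and miR-182 matched at 5. No further probe with a rat name and no star carried the seed of any of the 8.

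The genes lie at 5 places in the rat genome (GRCr8). miR-221 (chrX:6023246-6023268, plus strand) and miR-222 (chrX:6022682-6022702, plus strand) are annotated inside the long non-coding RNAs LOC120099382 and LOC120099384, with 458 bases between their hairpins. miR-183 (chr4:59756106-59756127), miR-96 (chr4:59755901-59755923) and miR-182 (chr4:59752249-59752273) are all on the minus strand between Nrf1 and Ube2h, outside any annotated host gene. Their hairpins are 97 bases apart from miR-183 to miR-96 and 3533 bases apart from miR-96 to miR-182. miR-31 (chr5:108714906-108714927, minus strand) is inside the non-coding LOC130062807, miR-205 (chr13:107564588-107564610, minus strand) lies between Camk1g and Plxna2 with no host, and miR-210 (chr1:205755946-205755967, minus strand) is inside the non-coding LOC102553043. The hairpins of miR-31 and miR-210 are each covered on the opposite strand by another annotated hairpin, Mir3554 and Mir3574.

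The arrays differed in brightness. The mean probe signal above the empty spots was 149 on the array of AA animal 20 and 263 to 484 on the other 5 arrays. Of the 1132 probes tested, 66.8% were well above background on AA 20, against 84.9% to 97.9% on the others. AA 20 therefore stands apart, and the log2 changes of the tested members are given without it as well. Here well above background means a signal past the median of the empty spots of that array plus 3 robust standard deviations.

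Detection divided the 8 miRNAs into 3 sets. The study's methods put the limit at a normalized intensity of 32, and the deposited table of normalized intensities was read at that value. miR-221, miR-222, miR-183 and miR-182 reached it on all 6 arrays, miR-31, miR-205 and miR-210 on some, and miR-96 on none. miR-31 and miR-205 each passed on 4 arrays, which were all 3 AA arrays and 1 control array, and miR-210 passed only on AA 21. Against the empty spots the picture was wider. The probes of miR-221, miR-222, miR-183, miR-182 and miR-31 were well above background on every array, miR-205 on all but control 13, miR-210 on all but AA 20, and miR-96 on none. The values of all 8 probes are drawn in the plot by array.

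**Figure D1:**
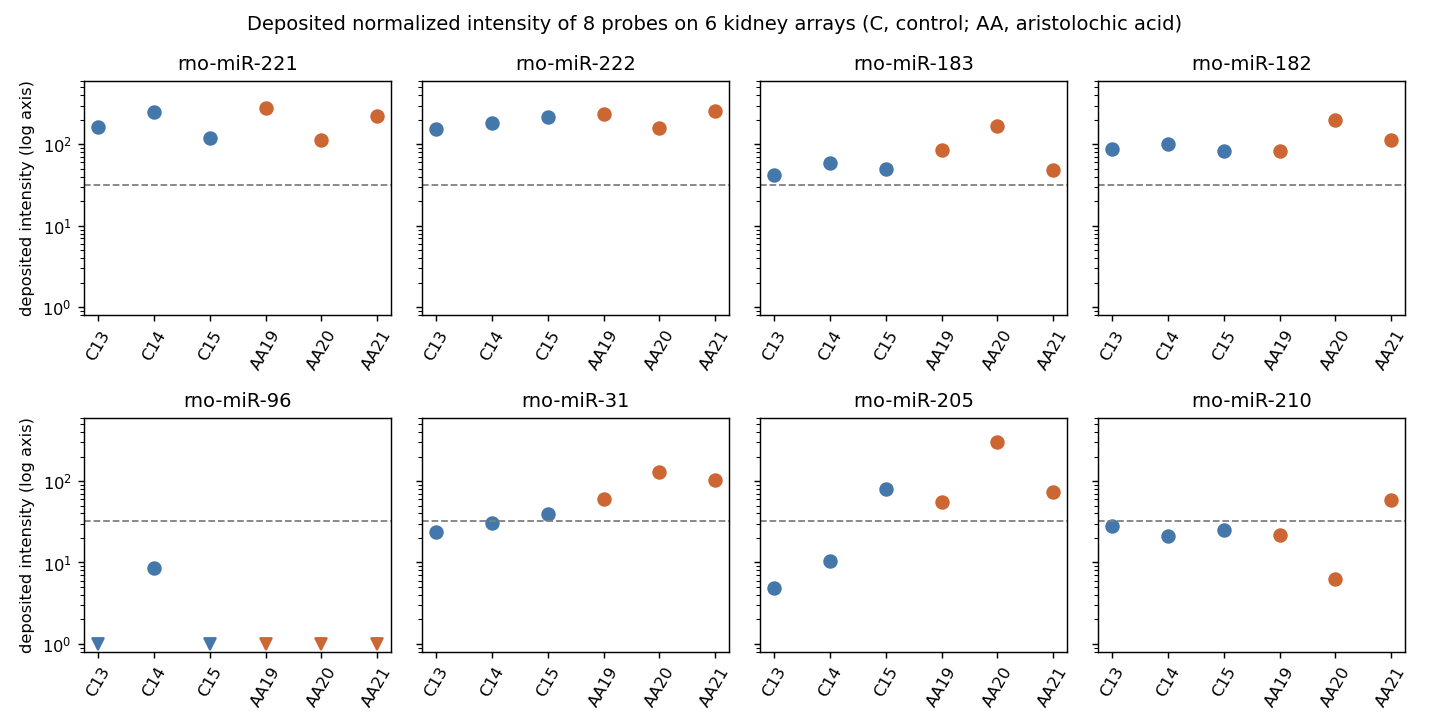
Deposited normalized intensity (log axis, no unit) of the 8 probes on control arrays C13, C14 and C15 (blue) and AA arrays AA19, AA20 and AA21 (orange), 1 point per array. The dashed line is the intensity of 32, and triangles mark values under 1 drawn at 1. The 3 AA arrays lie above the 3 control arrays for miR-31 alone, while miR-96 stays under the line on all 6 arrays.

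The design asks whether AA altered these miRNAs. Of the 8, 7 reached 32 on at least 1 array and were tested, and none passed an adjusted p of 0.05 in limma, which called 0.177% of all probes tested. miR-31 alone had an unadjusted p under 0.05, a level that 4.95% of all tested probes reached and that 1.15% reached with a higher signal in AA. The log2 change, AA minus control on the quantile-normalized signal, was above 0 for 6 of the 7 and below 0 for 1. Its median over the 7 was 0.45, against -0.05 over all 1132 tested probes, of which 45.8% were above 0. Without AA 20 all 7 were above 0, with a median of 0.39. In that setting 49.6% of all tested probes were above 0, with a median of -0.004. By contrast, only the probes of rat miR-34a (listed as hsa-miR-34a) and opossum miR-34a, a miRNA switched on by p53, passed the adjusted threshold. Their log2 changes were 2.58 (SE 0.25, adjusted p = 0.00864) and 2.52 (SE 0.23).

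**Figure D2:**
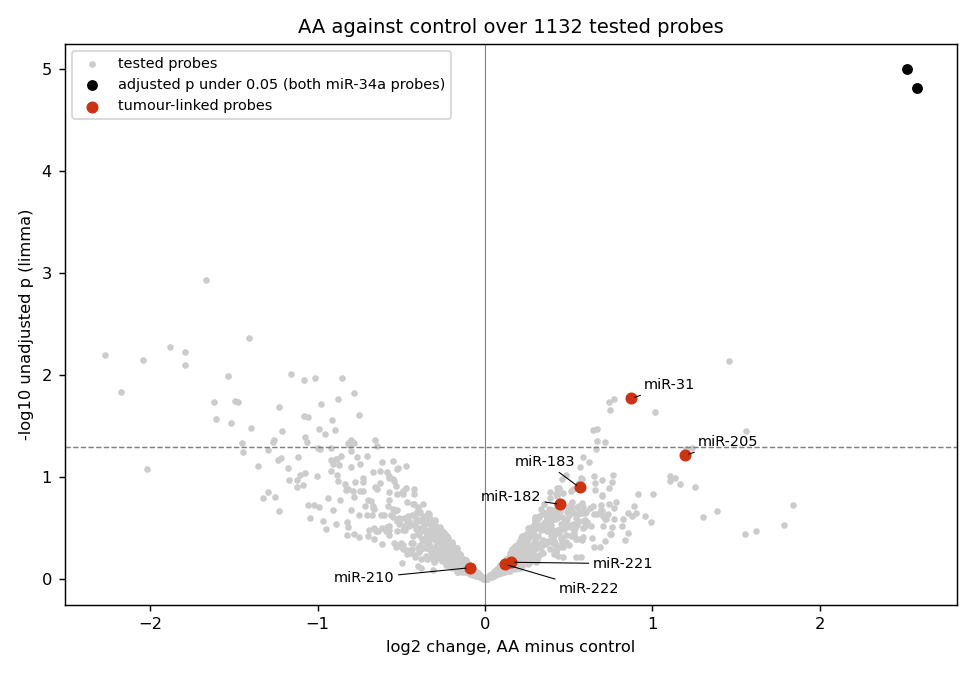
Log2 change, AA minus control, of quantile-normalized signal against -log10 of limma's unadjusted p, 1 point for each of the 1132 tested probes. The 7 tested members are named in red, the dashed line marks an unadjusted p of 0.05, and only miR-31 among them lies above it.

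miR-31 showed the clearest separation of the groups. Its deposited intensity was 23.9, 31 and 39.1 in control animals 13, 14 and 15, and 59.6, 128 and 103 in AA animals 19, 20 and 21. Every AA array was above every control array, a pattern that 4.07% of the tested probes showed on this scale. On the quantile-normalized log2 scale the controls read 6.56, 6.69 and 6.74 and the AA arrays 7.14, 7.89 and 7.58, again with no overlap, which 4.42% of the tested probes shared. The group means were 6.66 ± 0.09 (SD, n = 3) and 7.54 ± 0.38 (SD, n = 3), so the AA arrays spread more widely than the controls.

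The log2 change of miR-31 was 0.87 (SE 0.28), a ratio of 1.83 with a 95% interval of 1.16 to 2.91 before any adjustment for the number of probes. In limma the unadjusted p was 0.0169, and after adjustment it was 0.871, so the difference was not called. miR-31 was 18th by p and 27th by log2 change, highest first, among the 1132 probes. An exact two-sided permutation test over the 6 arrays gave p = 0.10, the smallest that 3 against 3 allows. Leaving out AA 20 gave 0.81 (SE 0.25, adjusted p = 0.426), and miR-31 was then again the single member with an unadjusted p under 0.05, which 5.21% of the tested probes reached with a higher signal in AA. Its unadjusted p in limma was 0.063 without control 13, 0.060 without control 14 and 0.052 without AA 21. Without control 15 or AA 19 it stayed under 0.05, at 0.029 and 0.0089. On the unnormalized scanner signal above the empty spots the groups overlapped, at 72.5, 36.0 and 35.8 in control and 142, 37.2 and 84.5 in AA. With each array weighted by its quality, miR-31 passed, at 0.85 on the log2 scale (adjusted p = 0.0405). Under that weighting 44 of the 1132 tested probes passed, in place of 2.

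miR-205 had the largest log2 change of the 7 and also the widest spread. In the deposited table it read 4.80, 10.3 and 79.1 in control animals 13, 14 and 15, and 55.5, 300.8 and 74.5 in AA animals 19, 20 and 21. Control 15 was above both AA 19 and AA 21, while controls 13 and 14 were far below every AA array, so the groups overlapped through a single control. The normalized log2 means were 6.56 ± 0.60 (SD, n = 3) in control and 7.76 ± 0.96 (SD, n = 3) in AA.

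The log2 change of miR-205 was 1.20 (SE 0.54), a ratio of 2.29 with an interval of 0.953 to 5.50. Its unadjusted p was 0.0606 and its adjusted p 0.885 in limma, and it was 14th by log2 change among the tested probes. Without AA 20 the change was 0.74 (SE 0.42, adjusted p = 0.663). Without control 15 it was 1.58, the highest of the values with 1 array left out. The raw scanner signal above the empty spots was 15.2, 13.4 and 69.5 in control and 131, 69.5 and 62.2 in AA, so controls 13 and 14 were also the 2 dimmest arrays for miR-205 before normalization.

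The plot of 3 scales sets these values side by side for miR-31, miR-205, miR-183 and miR-221. After normalization AA 20 was the highest of the 6 arrays for miR-31, miR-205, miR-183 and miR-182, and the lowest for miR-221, miR-222 and miR-210. On the raw scanner signal the same array was the lowest of the 6 for miR-221, miR-222, miR-182 and miR-210. What sets AA 20 apart was not tested.

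**Figure D3:**
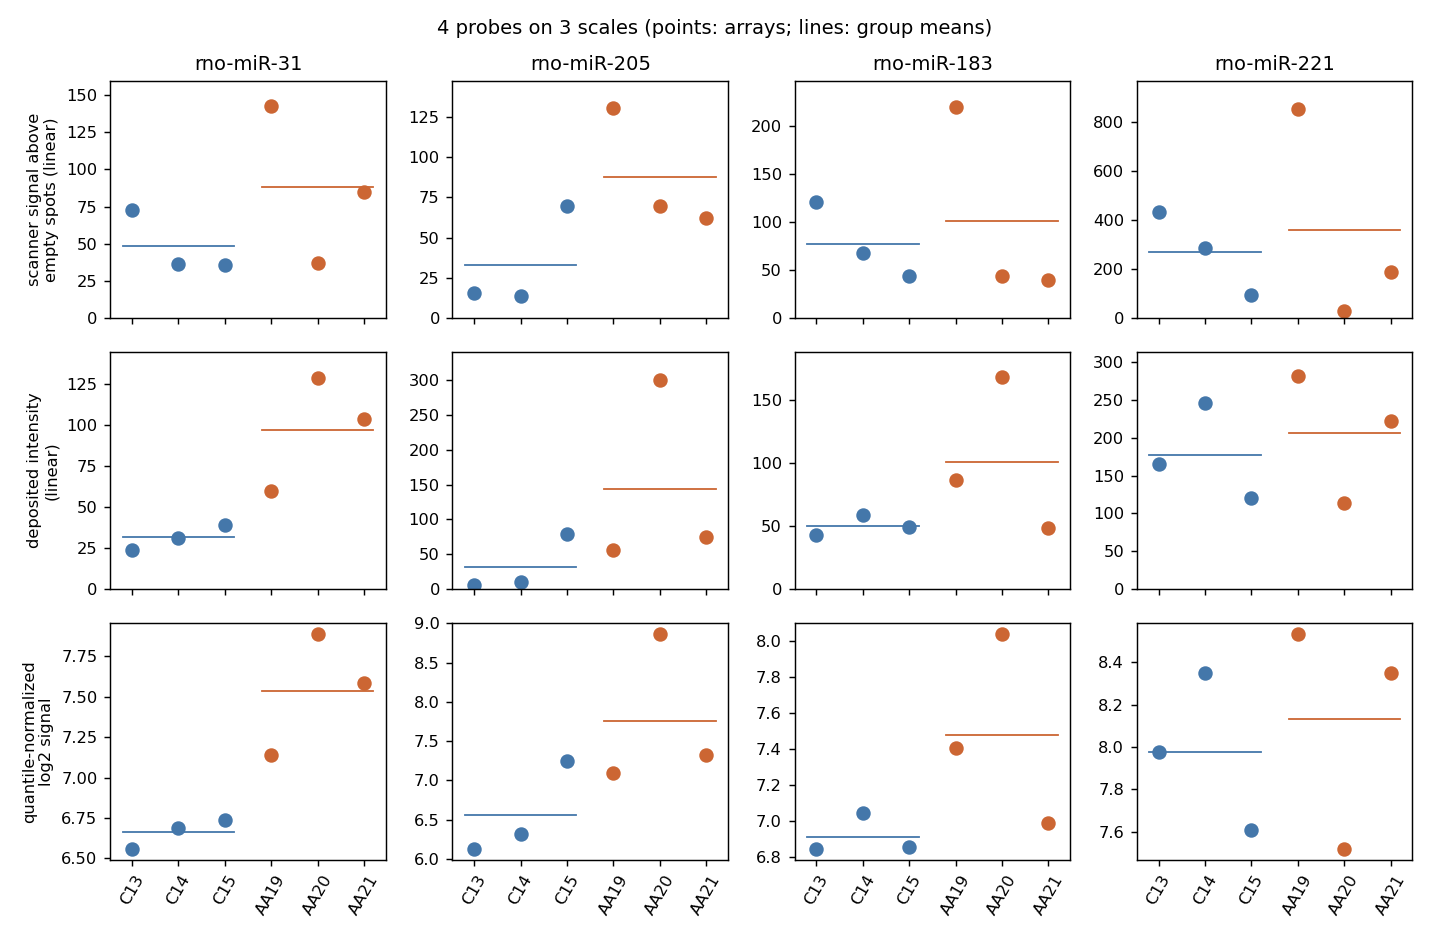
Values of miR-31, miR-205, miR-183 and miR-221 on 3 scales: scanner signal above the empty-spot median (top, linear), deposited intensity (middle, linear) and quantile-normalized log2 signal (bottom). Each point is 1 array (blue control, orange AA) and each line a group mean. For miR-31 the groups overlap in the top row and separate in the lower rows, where AA20 is the highest array.

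In the miR-183 cluster, 2 of the 3 members could be compared. miR-183 read 42.4, 59.0 and 49.4 in control animals 13, 14 and 15 and 86.2, 168 and 48.0 in AA animals 19, 20 and 21 in the deposited table. AA 19 and AA 20 were above all controls, and AA 21 was below controls 14 and 15. Its normalized log2 mean was 6.91 ± 0.11 (SD, n = 3) in control and 7.48 ± 0.53 (SD, n = 3) in AA, a log2 change of 0.56 (SE 0.33, adjusted p = 0.885). The 95% interval ran from -0.20 to 1.33.

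miR-182 read 88.1, 102 and 82.4 in control and 82.5, 199 and 115 in AA on the deposited scale. AA 20 and AA 21 were above the controls and AA 19 was among them. The log2 change was 0.45 (SE 0.31, adjusted p = 0.885), with an interval of -0.27 to 1.17. Both changes shrank without AA 20, to 0.33 (SE 0.25) for miR-183 and 0.23 (SE 0.23) for miR-182. Over the 6 arrays miR-183 and miR-182 followed each other more closely than any other pair of the 7. The root mean square difference between their centred log2 values was 0.215, against 1.14 for the least alike pair, miR-221 and miR-205. Each was about as close to the nearest of 134 other rat probes, miR-183 to miR-3564 (0.214) and miR-182 to miR-3591 (0.197). The other neighbouring pair, miR-221 and miR-222, differed by 0.338. That was more than miR-221 (0.301) or miR-222 (0.308) differed from miR-210.

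miR-96, whose hairpin lies between the other two, was not detected. Its deposited intensity was at most 8.67, on control 14, and below 0.1 on each of the other arrays. Its scanner signal above the empty spots was 0.74, 7.16 and 2.18 in control and 1.47, 4.82 and 1.88 in AA. No array put it well above background, so it was not tested and no ratio is given.

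miR-221 and miR-222, which share their seed, overlapped fully between the groups. miR-221 read 165, 247 and 120.3 in control animals 13, 14 and 15 and 282, 114 and 223 in AA animals 19, 20 and 21 in the deposited table. The highest and the lowest of its 6 arrays were both AA arrays. Its log2 change was 0.16 (SE 0.36, adjusted p = 0.926), with an interval of -0.70 to 1.01.

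miR-222 read 154, 181 and 217 in control and 238, 157 and 258 in AA. AA 19 and AA 21 were the highest arrays here and AA 20 lay just above the lowest control. Its log2 change was 0.12 (SE 0.30, adjusted p = 0.934), with an interval of -0.59 to 0.83, so changes up to those sizes in either direction lie within the error. Without AA 20 the values were 0.52 (SE 0.30) for miR-221 and 0.39 (SE 0.25) for miR-222, and neither passed. The signs turned for both miRNAs when a different array was left out, as given in the closing section.

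miR-210 was dim. Its deposited intensity was 27.8, 21.1 and 24.9 in control and 21.9, 6.28 and 57.9 in AA, so AA 20 was the lowest and AA 21 the highest of the 6 arrays. The log2 change was -0.09 (SE 0.30, adjusted p = 0.936), with an interval of -0.80 to 0.62, and 0.05 without AA 20. Its 2 spots on control 14 read 68.3 and 201, which is 2.95-fold apart. The spots of the other members differed by 1.00 to 1.40-fold on any array, and control 14 was the highest array for miR-210 on the normalized log2 scale.

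**Figure D4:**
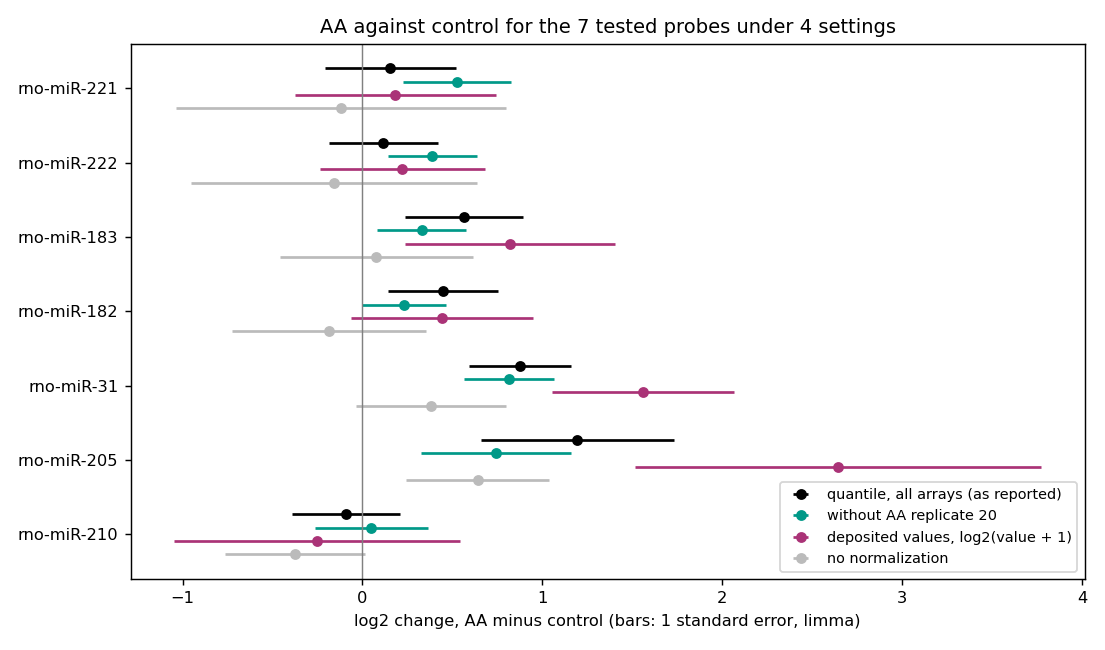
Log2 change, AA minus control, of the 7 tested members under 4 settings, with bars of 1 standard error from limma: quantile normalization of all arrays, the same without AA replicate 20, the deposited values, and no normalization. miR-31, miR-205 and miR-183 lie above 0 in each of the 4, while miR-221, miR-222, miR-182 and miR-210 lie on both sides of 0.

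The array also carries probes of other vertebrates for the same numbered miRNAs, with targets that are longer or shorter than the rat ones or differ from them by some bases. They do not add animals, and the choice to count all with the same number was made after their values were seen. There were 31 such probes, of which 11 have a target that holds the rat target or lies inside it. Of the 31, 13 reached 32 on no array and were not tested. Among them, dre-miR-222b and oan-miR-222b, each at an edit distance of 4 from rat miR-222, stayed at or below 7.92. The 18 tested probes all had a log2 change above 0, with a median of 0.42, where 45.8% of all tested probes were above 0. Of these, dre-miR-31, gga-miR-31, mdo-miR-31 and hsa-miR-205 reached 32 on AA 20 alone, and dre-miR-210 on AA 21 alone. cfa-miR-31 and cfa-miR-210 reached it on AA arrays only. Such probes were tested only through the group where they were high, so the filter partly sets their sign. The count is therefore no support for a change. None passed the adjusted threshold, and 1 had an unadjusted p under 0.05, against 4.95% of all tested probes. For 6 of the 18, cfa-miR-31 and mdo-miR-31 among them, the 3 AA arrays lay above the 3 control arrays, against 4.42% of all tested probes. Without AA 20, 17 were above 0, with a median of 0.31 and hsa-miR-182 at -0.04, and 49.6% of all tested probes were above 0.

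The 1 probe with an unadjusted p under 0.05 was hsa-miR-31. It read 31.3, 45.7 and 53.1 in control and 79.5, 233 and 102 in AA in the deposited table, with no overlap, and its log2 change was 1.02 (SE 0.35, adjusted p = 0.885), or 0.77 without AA 20. The 6 tested miR-31 probes of other species had changes between 0.35 and 1.02, and between 0.08 and 0.77 without AA 20. For miR-205, oan-miR-205 gave 1.20 (SE 0.52), pma-miR-205b 0.74 and hsa-miR-205 0.42, the last reaching 32 on 1 array. Without AA 20 these were 0.78, 0.37 and 0.12. For miR-210 the sign was opposite to that of the rat probe, at 0.05 for cfa-miR-210 and 0.17 for dre-miR-210 (0.34 and 0.28 without AA 20). Both other-species probes of miR-96 reached 32 on 0 arrays, as the rat probe did.

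**Figure D5:**
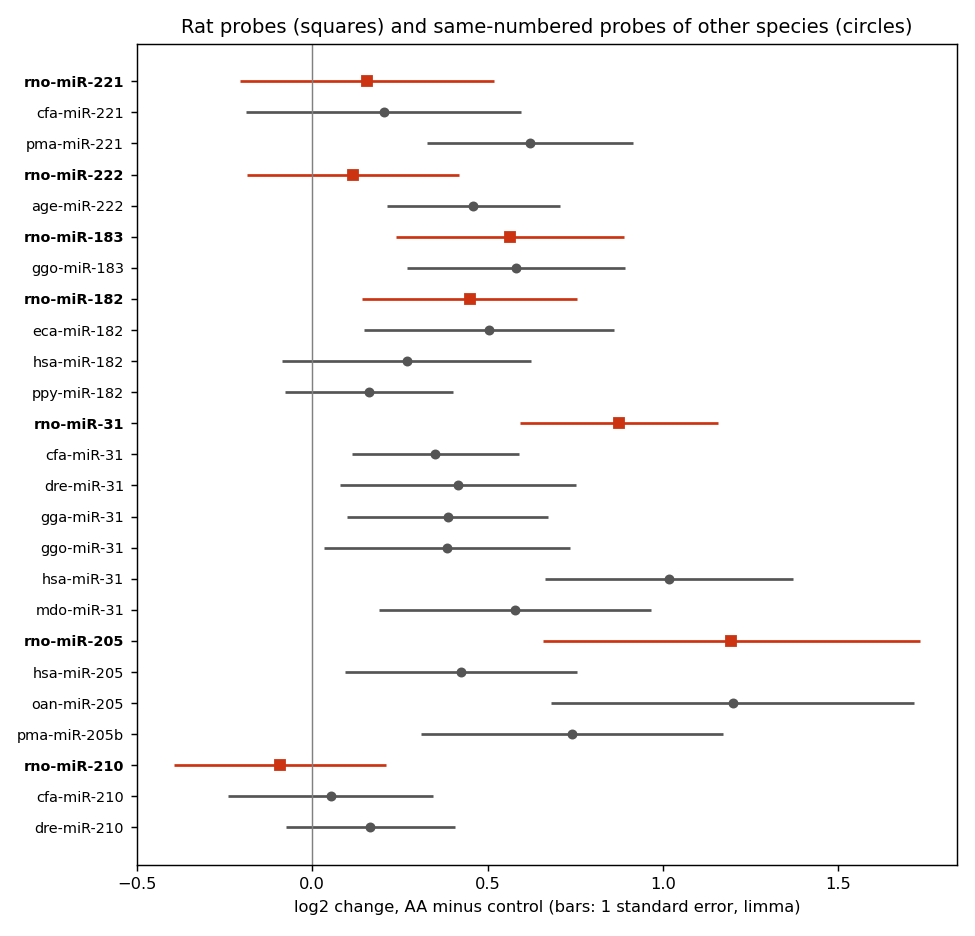
Log2 change, AA minus control, with 1 standard error from limma, for the 7 tested rat probes (red squares) and the 18 tested probes of the same number from other species (grey circles). All circles lie above 0, from 0.05 for cfa-miR-210 to 1.20 for oan-miR-205; without AA 20, hsa-miR-182 was at -0.04.

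Star probes for the minor arm of the hairpin were present for 6 of the 8, all but miR-182 and miR-205. Those of miR-221, miR-222, miR-183, miR-96 and miR-31 reached 32 on 0 arrays. The star probe of miR-210 reached it on all 6, at 331, 629 and 469 in control and 264, 5861 and 556 in AA. On this scale AA 20 was far above the rest and AA 19 was the lowest. On the raw scanner signal above the empty spots AA 20 read 828, below the 888 of AA 19 and the 883 of control 13. The log2 change was 0.75 (SE 0.77, adjusted p = 0.885), and -0.19 (SE 0.38) without AA 20. The miRNA from the opposite strand of that locus, miR-3574, had the same highest and lowest array in the deposited table, at 227, 361 and 310 in control and 175, 3390 and 449 in AA. On the raw scanner signal it read 423 on AA 20, against 627 on control 13 and 601 on AA 19. The miRNA opposite miR-31, miR-3554, reached 32 on 0 arrays. These 2 probes were chosen after their place in the genome and their values were seen.

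Among rat probes outside the 8, the closest in pattern over the 6 arrays was found for each member by the root mean square difference of log2 values centred on their own mean, over 134 probes. It is a description with 6 points that share their arrays. miR-31 was closest to miR-200a (0.203), an epithelial miRNA of the kidney tubule, and miR-205 to miR-3574 (0.474). miR-183 was closest to miR-3564 (0.214) and miR-182 to miR-3591 (0.197). miR-221 was closest to miR-10a-3p (0.147), miR-222 to miR-331 (0.099) and miR-210 to miR-365 (0.193).

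Markers of the cell types in the kidney were read beside these values. Of 11 probes for kidney epithelium miRNAs, 8 reached 32 on all 6 arrays, while miR-204 and miR-215 reached it on none. Their 9 tested probes had a median log2 change of -0.27 (0.31 without AA 20), and none passed. Of the 9, 4 were above 0 (7 without AA 20). One of them, miR-194, had an unadjusted p under 0.05, at -0.82 with every AA array below every control, and at -0.53 without AA 20. The opposite held for miR-200a (0.58) and miR-200c (0.39), with every AA array above every control on the normalized log2 scale. On that scale 9.98% of all tested probes had no overlap in either direction. Of 7 leukocyte markers, 6 had a probe with a rat name, and miR-155 had none. The markers miR-142-3p, miR-142-5p and miR-223 reached 32 on 0 arrays. miR-146a, miR-146b and miR-150 were detected and lay on both sides of 0. miR-146a was at -0.78 (unadjusted p = 0.0151, adjusted p = 0.871 in limma), with every AA array below every control, while miR-146b was at 0.76 and miR-150 at 0.34. The summed deposited level of the list was 1817 to 2509 in control and 1400 to 2086 in AA.

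The 5 smooth muscle and fibroblast miRNAs, miR-143, miR-145, both arms of miR-199a and miR-214, were all above 0, with a median of 0.43 (0.73 without AA 20). Of these, miR-199a-3p and miR-214 had an unadjusted p under 0.05, a level 4.95% of all tested probes reached, and none passed. Their summed deposited level was 2520 to 3794 in control and 3483 to 4973 in AA. Endothelial miR-126 had a log2 change of -0.28 (0.33 without AA 20) and erythroid miR-451 one of -0.34 (-0.18), neither past the test, and erythroid miR-144 reached 32 on 0 arrays. The part of any cell type in the values of the 8 miRNAs was not tested.

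A list of 22 other miRNAs tied to tumours or kidney injury was also read. A rat probe was found for 21 of them and 18 were tested. Of the 18, 10 had a log2 change above 0, and the median was 0.06 (15 and 0.35 without AA 20). One passed, miR-34a, with a higher signal in AA. The 4 with an unadjusted p under 0.05, against 4.95% of all tested probes, were miR-34a, miR-21 and miR-214, higher in AA, and miR-146a, lower in AA. Set beside that list, the 7 tested members had 6 above 0 and none past the threshold, with the median of 0.45 given above. Without AA 20 the medians were close, at 0.39 for the 7 members and 0.35 for the list.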

How the data were processed

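Kidney RNA of 3 control and 3 AA rats was read on 1-colour (Cy3) custom miRNA arrays. The deposited scanner files give the intensity of each of 15066 spots, with no normalization by the authors. The authors' deposited series table holds 5559 of the 5560 probes as normalized intensity. Their background was subtracted and a LOWESS filter applied before a threshold of 32, per the methods, which do not state the LOWESS reference or how spots were combined. Per the sample labels the groups share no batch name or replicate number.

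Scanner intensity was corrected with normexp (offset 50), control and empty spots were left out, log2 signals were quantile-normalized, and the mean of a probe's 2 spots was taken. The offset understates changes of dim probes. The 1132 probes at 32 or more on at least 1 array in the deposited table were fitted with lmFit and eBayes (limma 3.58.1, R 4.3.3), with Benjamini-Hochberg adjustment over all of them at 0.05. Candidate_84, absent from that table, was filtered on scanner signal above the empty-spot median. The code was tested on simulated data. The number of arrays limits the precision.

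All 8 miRNAs are named, with their star probes, same-numbered probes of other species and the 1 most alike rat probe each. Members and lists were chosen with earlier results of these data known. Alternatives covered background correction, normalization, filter, test, array weights, the median over spots, the deposited values and each array left out.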

Additional observations from a re-analysis of the deposited data

How the results depend on the processing

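Over 18 alternatives to the processing, each fitted across all probes, miR-31, miR-205 and miR-183 kept a log2 change above 0. Changing the filter, the test or the variance prior, or taking the median of a probe's 2 spots, cannot move a log2 change. The sign was therefore open to change only in the other alternatives. miR-31 ranged from 0.38 to 1.58, with an adjusted p of 0.0405 to 0.996 and an unadjusted p under 0.05 in 13 of the 18. miR-205 ranged from 0.64 to 2.65, with an adjusted p of 0.0713 to 0.996 and an unadjusted p under 0.05 in 6 of the 18. miR-183 ranged from 0.078 to 0.91, with an adjusted p of 0.581 to 0.996 and an unadjusted p under 0.05 in 0 of the 18. The highest values came from plain subtraction of the empty-spot median for miR-31 (1.58, with 1.56 for the deposited intensities on the log2(value + 1) scale) and from those deposited intensities for miR-205, and the lowest of both from signals with no normalization. Weighting the arrays by quality gave controls 13, 14 and 15 weights of 2.89, 5.17 and 0.453. AA 19, AA 20 and AA 21 were given 0.581, 0.124 and 2.06. With these weights the number of the 8 past the adjusted threshold was 1, miR-31, in place of 0. The number over all tested probes was then 44 in place of 2, and it was 0 under median scaling, under cyclic loess and when nothing was normalized. With 1 array left out it was 0 to 3, at 3 without AA 20 and at 0 without any other array.

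With no normalization the sign turned for miR-182 (-0.19), miR-221 (-0.12) and miR-222 (-0.16), where the median of all tested probes was itself -0.32. miR-210 was 0.038 under median scaling, where that median was 0.09. With each array left out in turn, miR-221 ranged from -0.035 to 0.52, turning below 0 without control 15 or AA 19, miR-222 from -0.044 to 0.39, turning without AA 21, and miR-210 from -0.30 to 0.075, turning without control 14 or AA 20. The cause was not tested. miR-210 gave 17 alternatives, since a filter at 32 on at least 3 arrays removes it. The counts of detected miRNAs moved by less than 1.5 times at thresholds of 16 and 64.

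No paired analysis was possible because the control and AA animals share no replicate number. Signal over background limits miR-96, miR-205 and miR-210.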
